A study of Mus musculus with 4 samples.

Results

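The genes of hepatic ethanol and aldehyde oxidation were read in mouse liver at every non-control probe whose deposited gene name was Cyp2e1, Adh1, Adh4, Adh5, Adh7, Aldh2, Aldh1a1, Aldh1a7, Aldh1b1 or Cat. The rule found 13 probes of these 10 genes among 41174 probes and 28090 gene names on the array, and used no measured value. The genes themselves were chosen with earlier results of these data known. The series concerns a Lactobacillus labelled as from ostrich and the weight, gut bacteria and metabolism of mice, and its design text names Cyp2e1 as a target of its own PCR. Livers of 2 mice labelled LB1 and of 2 control mice, all female BALBc and killed 20 days after inoculation, were each hybridised to 1 Agilent whole-genome array of 60-base probes with 1 dye. What LB1 stands for and what the control mice received are not given in the labels. No genotype, allele or age is given in them either.

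Ethanol is oxidised to acetaldehyde by cytosolic alcohol dehydrogenases, by the cytochrome P450 Cyp2e1 of the endoplasmic reticulum and, using hydrogen peroxide, by catalase of the peroxisome. Acetaldehyde is then oxidised to acetate, mainly by the mitochondrial aldehyde dehydrogenase Aldh2. Liver is the main organ of both steps, and Cyp2e1 is known as an enzyme of the hepatocytes around the central vein.

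Of the 13 probes, 5, for 4 genes, were saturated on both control arrays, where a spot gives only a lower limit of its level. Below are the RefSeq probes of the 3 genes on which most of the account turns, as deposited, 5′ to 3′, with positions on mm9. The pair for Adh1 is shown because the probes share 30 bases, in capitals, and differed in saturation on the LB1 arrays. They start at transcript positions 1093 and 1123, and the second crosses an intron, since its 60 bases span 654 bases of genome.
Adh1 upstream probe, chr3:137952821-137952880, plus strand: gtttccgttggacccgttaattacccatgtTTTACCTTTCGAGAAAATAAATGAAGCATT
Adh1 downstream probe, chr3:137952851-137953504, plus strand: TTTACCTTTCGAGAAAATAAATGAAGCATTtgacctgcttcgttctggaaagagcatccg
Cyp2e1 probe, chr7:147959585-147959644, plus strand: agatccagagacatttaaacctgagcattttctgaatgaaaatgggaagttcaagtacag
Aldh2 RefSeq probe, chr5:122022137-122022690, minus strand: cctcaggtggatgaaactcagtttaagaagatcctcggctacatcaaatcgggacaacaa

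The arrays differed in brightness with the group. The 75th percentile of the processed signal, the scanner software's spot brightness after background removal and detrending, was 146.9 and 80.8 on the LB1 arrays against 410.9 and 414.7 on the control arrays. Saturated spots numbered 104 and 64 on the LB1 arrays against 266 and 297 on the control arrays. Levels below are log2 of the processed signal relative to each array's 75th percentile, unless called processed signals, and differences are LB1 minus control. They say nothing of the total amount of RNA, and in whole liver fewer cells of a type and less RNA per cell cannot be told apart. Mesothelial markers, of the cell layer covering the liver, were called higher on the LB1 arrays at 7 of 8 tested genes of 10 listed. Among all 13430 tested genes 20.6% were called higher. The summed linear level of the mesothelial markers was 13.6 to 44.4 on the LB1 arrays against 0.263 to 1.55 on the control arrays. Of the 7 called, Msln, Krt7 and Gpm6a were well above background on all 4 arrays. The other 4 (Krt19, Lrrn4, Muc16 and Rspo1) entered the test only through the LB1 arrays, where they are high. Msln, the mesothelial antigen mesothelin, was at 2.65 and 4.37 on the LB1 arrays, against -0.89 and -4.17 on the control arrays, as log2 levels scaled as below. No listed mesothelial marker was below background on all arrays. All 9 hepatocyte markers on the array, of 10 listed, were well above background on all 4 arrays. Their summed level was 1857 to 2182 on the LB1 arrays against 1076 to 1090 on the control arrays, with 6 of the 9 saturated somewhere. Alb was saturated on all 4 arrays and Apoa1 on 3, so the sums carry no direction. The part of either in the results below was not tested.

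Of the 13 probes, 12 were tested, since they were well above background on both arrays of a group. Of these, 2 were lower and 1 higher in LB1 livers by limma with Benjamini-Hochberg adjustment over all probes. Among all 22960 tested probes 32.4% were called, 13.2% lower and 19.2% higher. Both lower calls belong to mitochondrial aldehyde dehydrogenases, Aldh2 and Aldh1b1. The higher call, at the upstream Adh1 probe, rests on saturated spots and gives no direction. Of the 7 tested probes with no saturated spot, 2 were called lower and 0 higher, beside 13.3% lower and 18.7% higher among all unsaturated tested probes. LB1 arrays lay below both control arrays at 3 of these 7 (32.3% of all tested probes) and above both at 2 (43.8%), and the groups overlapped at 2. Adh7, 1 of those 2, entered the test only through the control arrays. By the methods' t-test, unadjusted and with at least a 2-fold change, the Aldh2 RefSeq probe and the upstream Adh1 probe were called, beside 17.9% of all tested probes.

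**Figure D1:**
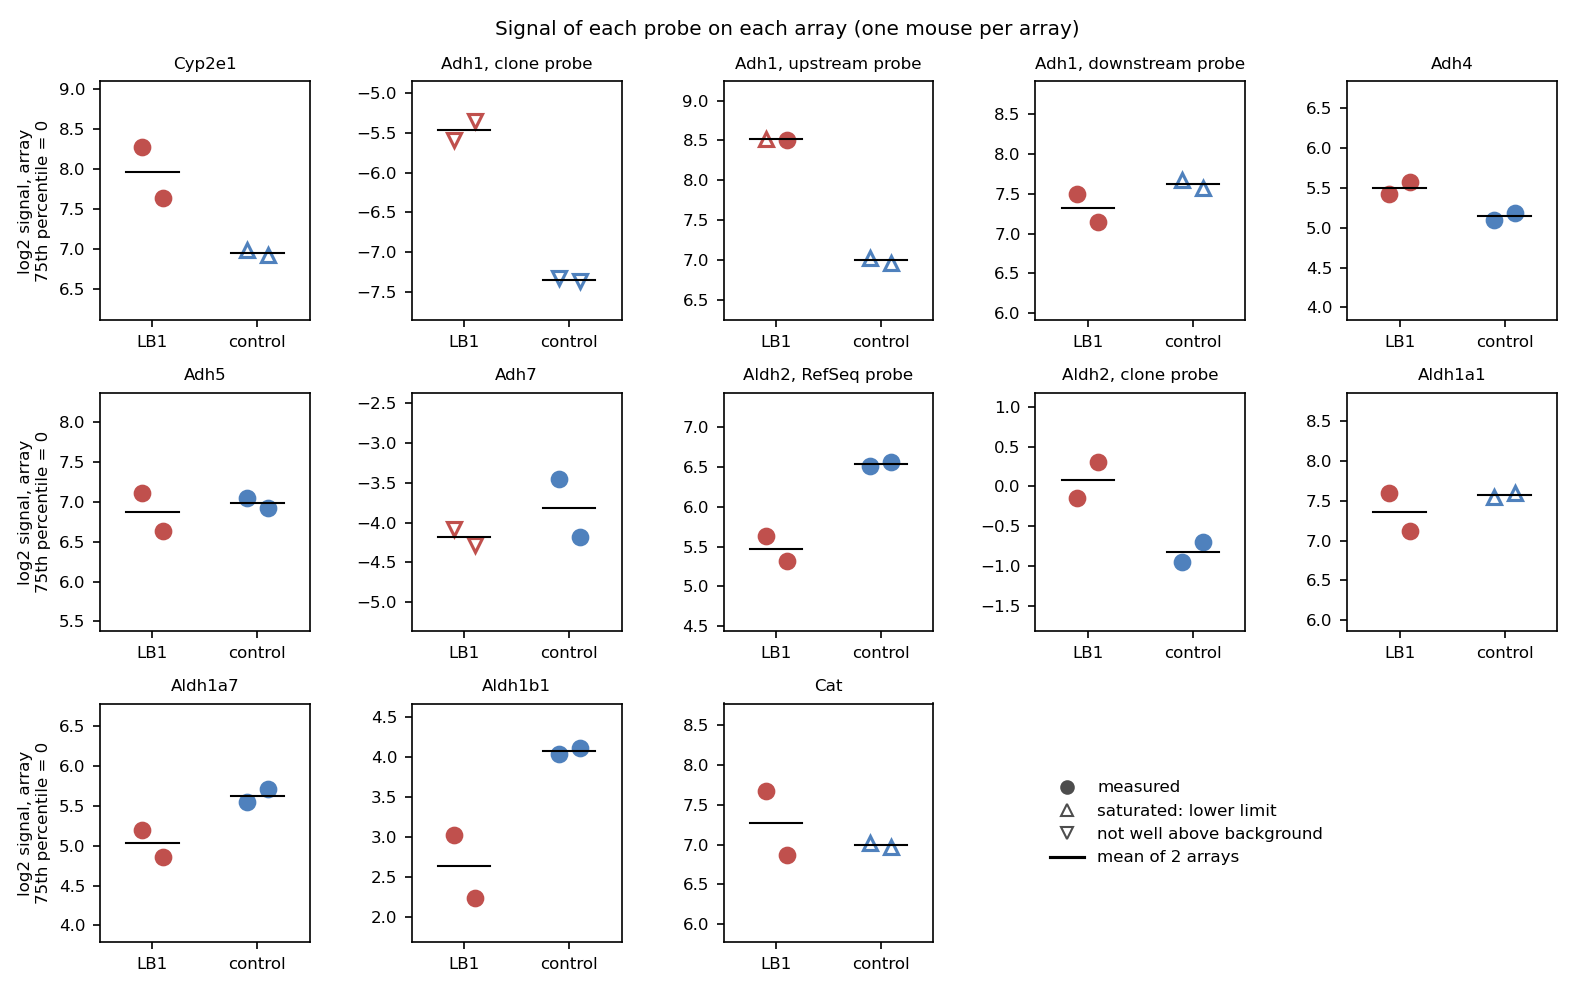
Level of each of the 13 probes on each array, as log2 of the processed signal with the array's 75th percentile at 0, LB1 left and control right in each panel. Each symbol is 1 mouse, the left symbol of a group being replicate 1, and bars are means of 2 arrays. Open upward triangles are saturated spots, which are lower limits, and open downward triangles are spots not well above background. The axes of the panels differ in position, since levels of different probes are not comparable.

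Cyp2e1, the ethanol-inducible P450, was too bright to be measured in control livers. Its processed signal was 45701 and 16124 on the LB1 arrays, against 51842 and 50175 on the control arrays. Both control spots were saturated, in 98.4% and 97.0% of their pixels, and neither LB1 spot held a saturated pixel. On the scaled log2 axis the LB1 levels were 8.28 and 7.64, against lower limits of 6.98 and 6.92 in control livers. The difference of 1.01 (SE 0.29, limma adjusted p = 0.0523) is therefore an upper limit. It leaves the direction undetermined. Within slides, each of which held the arrays of 1 replicate number, the limit was 1.30 on the first and 0.72 on the second. It was 0.38 with the array median as reference and -0.91 with no scaling. Quantile normalization gave 0.39, which is no limit, since the ranks of saturated spots are not known. The adjusted p of the difference passed in 5 of 16 alternatives. Exact permutation over the 4 arrays, 2-sided, gave p = 0.333, the smallest that 2 against 2 allow. Gapdh, the housekeeping gene of the study's PCR, was at 6.36 ± 0.08 in LB1 and 6.39 ± 0.27 in control livers (SD, n = 2 each), with no saturated spot.

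Catalase, which oxidises ethanol in peroxisomes and otherwise breaks down hydrogen peroxide, met the same ceiling. The Cat probe had processed signals of 29987 and 9448 on the LB1 arrays, against 53220 and 52161 on the control arrays, where 100% and 97.0% of the pixels were saturated. Scaled levels were 7.67 and 6.87 in LB1 livers, against lower limits of 7.02 and 6.97 in control livers. The upper limit of the difference was 0.28, 0.66 on slide 1 and -0.10 on slide 2. It was below 0 with the array median (-0.36) and normexp background correction (-0.32). Quantile normalization gave -0.30, which is no limit, since the ranks of saturated spots are not known. None of these 3 passed the test.

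The alcohol dehydrogenase genes lie together on chromosome 3 with their protein-coding members in the order Adh7, Adh1, Adh6a, Adh6b, Adh4 and Adh5. Adh1, class I and the main ethanol-oxidising form of liver, was saturated at both RefSeq probes in control livers. The upstream probe had processed signals of 53638 and 29445 on the LB1 arrays, against 53648 and 51838 on the control arrays, and was saturated on all but LB1 replicate 2. Its spots on LB1 replicate 1 and control replicate 1 had the same mean signal before correction, 65525, with 100% of the pixels saturated on both. Its called difference of 1.51 (SE 0.21, adjusted p = 0.0212) therefore carries no bound on slide 1, and on slide 2 it is an upper limit of 1.54. The downstream probe had processed signals of 26477 and 11423 on the LB1 arrays, against 84105 and 79074 on the control arrays. Its control spots were saturated in 98.4% and 90.6% of their pixels and its LB1 spots in none.

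For the downstream Adh1 probe the upper limit of the difference was -0.31 (SE 0.24, adjusted p = 0.342), and -0.18 and -0.43 within slides. A limit below 0 places Adh1 lower in LB1 livers at this probe and scaling, by an amount that is not known and did not pass the test as measured. The difference passed, as a lower level, in 4 of 16 alternatives, such as normexp (-0.90, adjusted p = 0.00547). Quantile normalization (-1.44, adjusted p = 0.0247) is among them but gives no limit, since the ranks of saturated spots are not known. No scaling, where 15167 of all 22960 tested probes were called lower, is among these 4. The third probe named Adh1, made from a cerebellum cDNA clone, lies on the minus strand, opposite to both RefSeq probes. It was not well above background on any array, was tested only in the alternative with no filter and gives no fold.

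Adh4, the class II form, which also oxidises retinol, had processed signals of 6284 and 3842 on the LB1 arrays, against 14127 and 15128 on the control arrays. Its scaled levels were 5.42 and 5.57 in LB1 livers, against 5.10 and 5.19 in control livers, so that both LB1 arrays lay above both control arrays. The difference of 0.35 (SE 0.21, 95% interval -0.20 to 0.90, limma adjusted p = 0.244) did not pass. Its sign was negative with the array median, with normexp and with no scaling.

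Adh5, class III, known as glutathione-dependent formaldehyde dehydrogenase, was at 7.11 and 6.64 in LB1 livers, against 7.05 and 6.93 in control livers. The groups overlapped, and the difference was -0.11 (SE 0.26, 95% interval -0.78 to 0.55, limma adjusted p = 0.749). No Adh5 spot was marked saturated, although 10.9% and 1.52% of its pixels were on the control arrays. Adh7, class IV, is known as a form of stomach and other epithelia. Its processed signal was 8.7 and 4.2 on the LB1 arrays, not well above background, against 37.5 and 23.0 on the control arrays, which gives no fold.

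Aldh2, which clears acetaldehyde in mitochondria, fell at its RefSeq probe. The processed signal was 7272 and 3213 on the LB1 arrays, against 37370 and 39035 on the control arrays, with no saturated pixel. Scaled levels were 5.63 and 5.31 in LB1 livers, against 6.51 and 6.56 in control livers. Both LB1 arrays were clearly below both control arrays, which lay close together. The difference was -1.06 (SE 0.23, 95% interval -1.65 to -0.47, limma adjusted p = 0.0304), a level 2.09-fold lower. It was -0.88 within slide 1 and -1.24 within slide 2. The call was lost with Gapdh as the reference (-1.02, adjusted p = 0.0672), without control replicate 1 (-1.08, adjusted p = 0.165), without control replicate 2 (-1.04, adjusted p = 0.204) and by the methods' t-test after adjustment (0.142). It held in the other 12 of 16 alternatives, among them no scaling, where 15167 of all 22960 tested probes were called lower.

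A second Aldh2 probe went the other way. It was made from a cDNA clone (AK163452), lies 5980 bases downstream of the first (chr5:122016157-122016216) and was dim, with processed signals of 132.3 and 100.1 on the LB1 arrays, against 212.7 and 255.8 on the control arrays. Scaled levels were -0.15 and 0.31 in LB1 livers, against -0.95 and -0.70 in control livers. The difference of 0.90 (SE 0.27, limma adjusted p = 0.0552) did not pass, but did in 5 of 16 alternatives, such as normexp (0.72, adjusted p = 0.012). The files do not say which transcripts the clone probe reads, so the fall applies to the RefSeq probe alone.

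Aldh1b1, the other mitochondrial aldehyde dehydrogenase of the group, which also accepts acetaldehyde, fell at its only probe (chr4:45816960-45817019). The processed signal was 1195 and 380.1 on the LB1 arrays, against 6787 and 7196 on the control arrays. Scaled levels were 3.02 and 2.23 in LB1 livers, against 4.05 and 4.12 in control livers. LB1 replicate 2 was the lowest array, and its distance from LB1 replicate 1 was much wider than that between the control arrays. The difference was -1.45 (SE 0.32, 95% interval -2.29 to -0.62, limma adjusted p = 0.0319), a level 2.74-fold lower. It was -1.02 within slide 1 and -1.88 within slide 2. The call was lost without control replicate 1 (-1.49, adjusted p = 0.124), without control replicate 2 (-1.42, adjusted p = 0.166) and by the methods' t-test after adjustment (0.179). The methods' t-test before adjustment, which is not counted among the alternatives here, did not call Aldh1b1 either. The Aldh1b1 call held in the other 13 of 16 alternatives, among them no scaling, where 15167 of all 22960 tested probes were called lower.

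**Figure D2:**
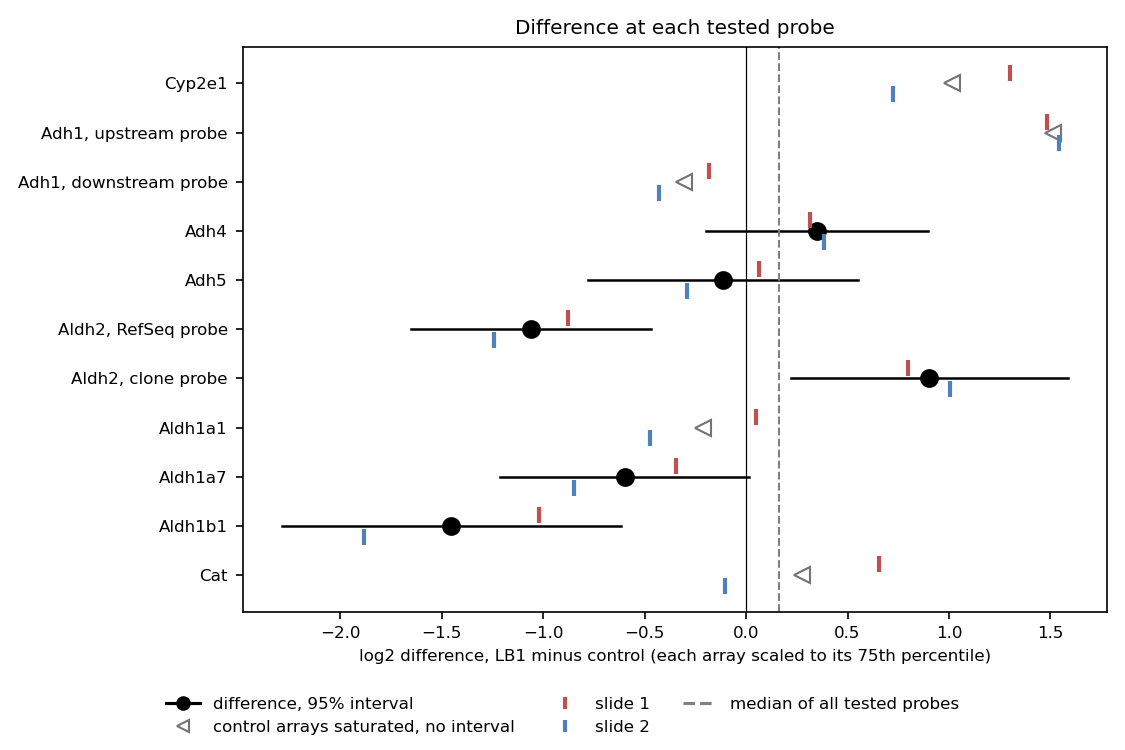
Difference between LB1 and control at the 11 tested probes well above background on all 4 arrays, on the log2 scale with arrays scaled to their 75th percentile. Filled circles carry 95% intervals from limma, and open arrowheads are probes saturated on both control arrays, where the value is an upper limit, except at the upstream Adh1 probe, which was also saturated on LB1 replicate 1 and has no bound on slide 1. Red and blue ticks are the values within slide 1 and slide 2, and the dashed line is the median of all tested probes, 0.16. The Aldh2 RefSeq probe at -1.06 and Aldh1b1 at -1.45 have intervals below 0, and that of the Aldh2 clone probe lies above 0.

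The cytosolic aldehyde dehydrogenases gave no call in the main scaling, and did in others. Aldh1a1, which oxidises retinaldehyde, had processed signals of 28494 and 11240 on the LB1 arrays, against 76955 and 80191 on the control arrays, where both spots were saturated. The upper limit of its difference was -0.21 (adjusted p = 0.541). Within slides it was 0.05 and -0.47. LB1 replicate 1 was at 7.600, against lower limits of 7.549 and 7.595 in control livers, so whether the levels overlap is not known. The difference passed, as a lower level, in 3 of 16 alternatives, among them no scaling, where 15167 of all 22960 tested probes were called lower. Quantile normalization, which gives no limit at saturated spots, is another of them. Aldh1a7, its rodent paralogue, was not saturated and was at 5.20 and 4.86 in LB1 livers, against 5.55 and 5.71 in control livers. Both LB1 arrays lay below both control arrays, but the difference of -0.60 (SE 0.24, 95% interval -1.21 to 0.01, limma adjusted p = 0.108) did not pass. It passed as lower in 6 of 16 alternatives, among them the array median (-1.23, adjusted p = 0.0137), normexp (-1.12, adjusted p = 0.00219) and no scaling. The probes of this pair share no run longer than 8 bases. Neither was compared with the transcript of the other gene, so whether a probe also reads its paralogue was not tested.

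The size of every difference depends on how the arrays were made comparable. The median of all tested probes was 0.16 in the main scaling, -0.47 with the array median, -0.09 with quantile normalization, 0.44 with normexp and -1.76 with no scaling. The share of calls that were higher was 59.3% in the main scaling, and 18.8%, 38.7%, 70.9% and 0.895% in those 4. Set against that median, Aldh1b1 was at -1.61, the Aldh2 RefSeq probe at -1.22, Aldh1a7 at -0.76, Adh5 at -0.28 and Adh4 at 0.19. A factor per array (75th percentile, median, Gapdh or none) shifts all probes alike, so these values are the same under all 4 by construction, and only quantile normalization and normexp could move them. With quantile normalization and normexp Aldh1b1 was at -1.56 and -2.33 and the Aldh2 RefSeq probe at -1.38 and -2.08 relative to it. Set against Adh4 on the same array, a reference chosen after its values were seen, Aldh1b1 changed by -1.80 and the Aldh2 RefSeq probe by -1.41. Against Adh5 these values were -1.34 and -0.95. In each of these 4 ratios both LB1 arrays lay below both control arrays. The numerators are the 2 probes already called lower, so this order is no separate test of them. How often ratios of other probes are ordered so was not counted.

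**Figure D3:**
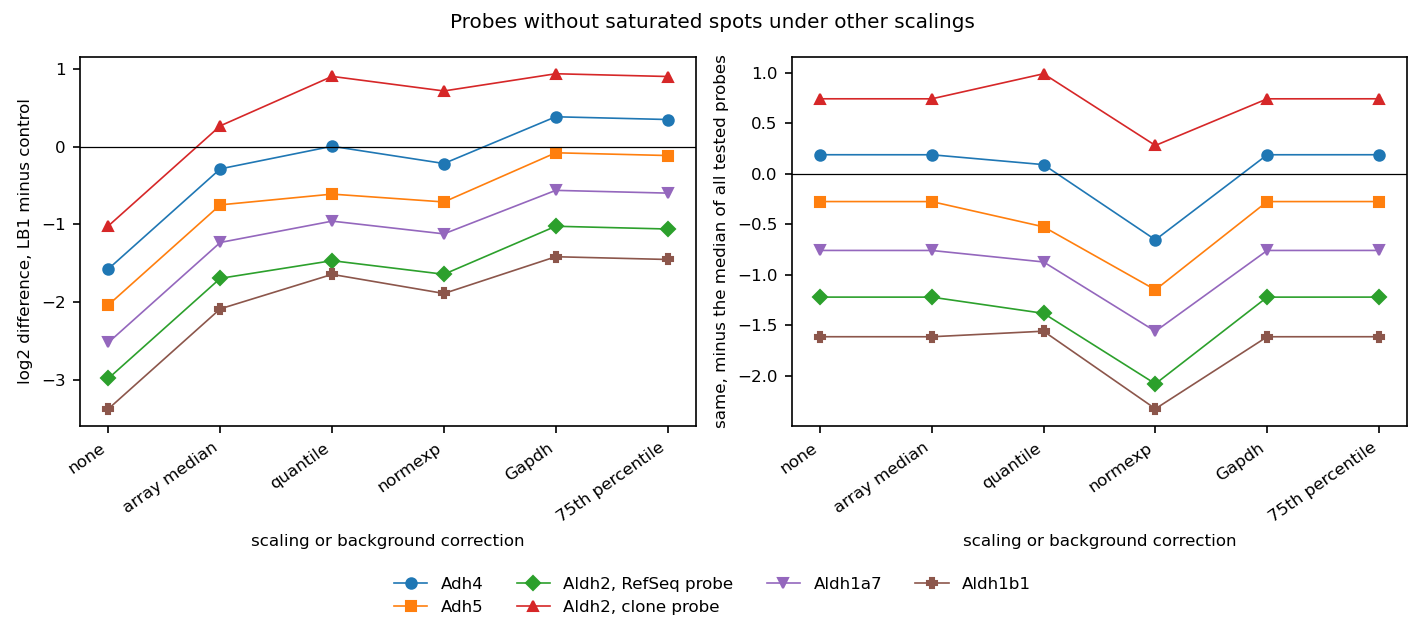
The 6 tested probes with no saturated spot and well above background on all 4 arrays, under 6 scalings or background corrections, as the log2 difference between LB1 and control (left) and the same minus the median of all tested probes (right). Each symbol is 1 probe, and lines join its values for legibility. The order is fixed by construction in the 4 settings with 1 factor per array, and Aldh1b1 and the Aldh2 RefSeq probe were also the lowest with quantile normalization and normexp.

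Other members of the enzyme families were then compared, from a list of 20 genes, of which 19 were on the array and 14 tested. LB1 livers were higher at 4, none of them saturated, and lower at 2, and 8 did not pass, beside 20.6% higher and 10.4% lower among all 13430 tested genes. The counts were 1 higher and 5 lower with the array median, and 4 and 8 with normexp. Without 1 control array the calls of the list were lost, as were nearly all calls over all tested probes. Over all 22960 tested probes, 1654 were higher and 7126 lower with the array median, and 11338 and 4643 with normexp. Adhfe1, a mitochondrial enzyme of hydroxyacid oxidation, was at -1.15 and -1.92 in LB1 livers, against 0.43 and 0.65 in control livers, a difference of -2.07 (SE 0.33, adjusted p = 0.022). Aldh6a1, the mitochondrial methylmalonate semialdehyde dehydrogenase of valine breakdown, fell by 1.16 on the log2 scale (SE 0.22, adjusted p = 0.0247). Aldh16a1 rose by 1.24 (SE 0.24, adjusted p = 0.0265). Aldh1a2, which makes retinoic acid and is known in mesothelium, rose by 2.01 (SE 0.43, adjusted p = 0.0297), beside the higher mesothelial markers given above. The list median was 0.19 below that of all genes, at -0.08 and -0.28 within slides. Adh6a, between Adh1 and Adh4 in the locus, was not well above background on any array.

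Electron donors of P450s, enzymes of hydrogen peroxide and peroxisome import and enzymes of acetate use were compared next, since they feed or drain the same reactions. Of 24 tested genes of 26 listed, 5 were called higher, all with saturated spots and so without direction. Lower calls were made at 2, and 17 did not pass, beside 20.6% higher and 10.4% lower among all 13430 tested genes. The lower genes were Prdx1, a peroxiredoxin, at -1.03 (SE 0.24, adjusted p = 0.0348), and Pex7, a peroxisomal import receptor, at -0.99 (SE 0.24, adjusted p = 0.0362). With slide as a block 0 of the list were lower. The counts were 2 higher and 4 lower with the array median, and 6 and 8 with normexp. Without 1 control array the calls of the list were lost, as were nearly all calls over all tested probes. Over all 22960 tested probes, 1654 were higher and 7126 lower with the array median, and 11338 and 4643 with normexp. Por, the reductase that passes electrons to Cyp2e1, was at 0.68 (adjusted p = 0.0923) with 1 saturated spot, and the list median was 0.03 above that of all genes.

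Genes of the pericentral and periportal zones of the liver lobule were compared because Cyp2e1 is a pericentral gene. Of 20 pericentral genes tested, 5 fell and 2 were called higher, 1 of those 2 without saturation, and 13 did not pass. Among all tested genes 20.6% were called higher and 10.4% lower. The counts were 0 higher and 11 lower with the array median and 2 and 12 with normexp. Without 1 control array nearly all calls of the list were lost, as were nearly all calls over all tested probes. Over all 22960 tested probes, 1654 were higher and 7126 lower with the array median, and 11338 and 4643 with normexp. The pericentral median lay 0.73 below that of all genes, at -0.56 and -0.70 within slides. Cyp7a1, which starts bile acid synthesis, fell by 2.95 on the log2 scale (SE 0.36, adjusted p = 0.0211). Cyp27a1 of the same pathway fell by 2.15 (SE 0.21, adjusted p = 0.0201) and Ahr, the dioxin receptor, fell by 1.36 (SE 0.24, adjusted p = 0.0238). Tbx3, a transcription factor, rose by 1.35 (SE 0.23, adjusted p = 0.0233). Cyp1a2, another pericentral P450, was at -0.16 (adjusted p = 0.577) with no saturated spot. Of 19 periportal genes tested of 20 listed, 3 were called lower and 4 higher, 2 in each direction without saturation, and 12 did not pass. The counts were 2 higher and 6 lower with the array median, 1 and 7 with quantile normalization, and 4 and 9 with normexp. Without 1 control array the calls of the list were lost, as were nearly all calls over all tested probes. Over all 22960 tested probes, quantile normalization gave 2517 higher and 3985 lower, and the other 2 scalings the numbers given with the pericentral genes. Hsd17b13, a lipid droplet protein, fell by 2.39 (SE 0.32) and the apolipoprotein Apoa4 fell by 1.72 (SE 0.29). Uroc1, of histidine breakdown, rose by 1.12 (SE 0.22) and Igf1, a growth factor, by 1.14 (SE 0.26), with adjusted p of 0.0212 to 0.0324 over these 4. The periportal median lay 0.15 below that of all genes. A difference between the zones was not tested.

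**Figure D4:**
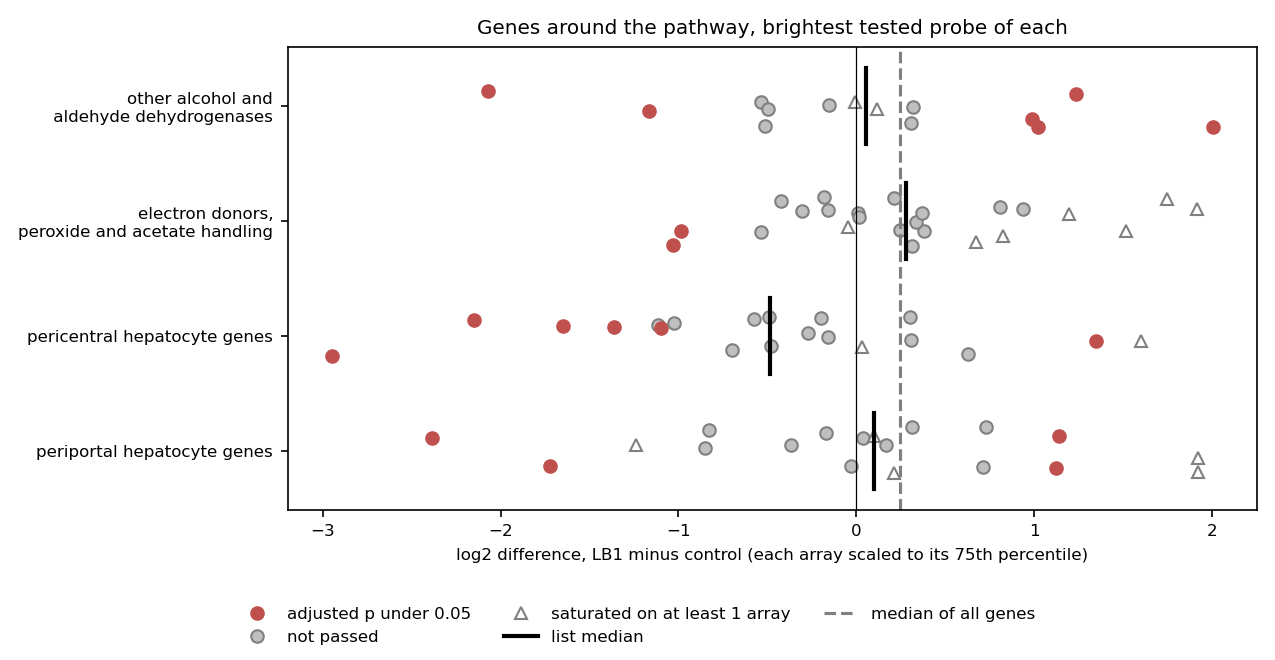
Log2 difference between LB1 and control for each tested gene of the 4 lists of companion genes, at its brightest tested probe. Filled red circles passed the test, grey circles did not, and open triangles are genes saturated on at least 1 array. Black bars are list medians, and the dashed line is the median of all tested genes, 0.25. The pericentral median of -0.48 lies below that line, and the other 3 lie between 0.05 and 0.28.

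Markers of other cell types were read for the same reason as the mesothelial ones. Each count below stands beside 20.6% called higher and 10.4% called lower among all 13430 tested genes. Cholangiocyte markers were called higher at 3 and lower at 1 of 5 tested. Of these 3, Krt7 and Krt19 are also in the mesothelial list, and the lower one was Spp1 at -1.53. Striated muscle markers were called higher at 2 of 3, Myl7 and Myh7, which was well above background on 1 control array only. Red cell markers were called higher at 2 of 2, with Alas2 at 2.44 and Hba-a1 saturated on 1 array. Kupffer cell markers were higher at 0 and lower at 1 of 7, sinusoidal endothelial markers the same, and stellate cell markers higher at 1 of 7. Exocrine pancreas markers were higher at 1 of 3 tested, stomach markers at 1 of 2 and adipocyte markers at 0 of 2. The summed Kupffer level was 63.4 to 66.5 on the LB1 arrays against 60.2 to 65.7 on the control arrays. The red cell sum was 542.3 to 625.1 on the LB1 arrays against 90.5 to 157.2 on the control arrays, and the muscle sum 2.89 to 7.77 on the LB1 arrays against 0.176 to 0.425 on the control arrays. Hba-a1 makes up most of the red cell sum. The cholangiocyte sum, to which Krt7 contributes most on the LB1 arrays, was 4.94 to 11.5 on the LB1 arrays against 3.95 to 4.25 on the control arrays. Markers not well above background on any array included Actn2, Ckm, Myh6 and Tnnt2 of the muscle list, Cela2a, Cpa1, Pnlip and Prss2 of the pancreas list, Cblif, Gkn2, Pgc and Tff2 of the stomach list, and Cfd, Lep, Plin1 and Retn of the adipocyte list. Of the hepatocyte markers 3 were called higher and 1 lower, all 4 with saturated spots. The gene with the largest difference of each list was Krt7 for cholangiocytes (4.69), Vsig4 for Kupffer cells (-1.59), Fcgr2b for sinusoidal endothelium (-1.07), Col1a1 for stellate cells (1.68), Myl7 for muscle (5.65), Cel for pancreas (1.40), Tff1 for stomach (1.34), Fabp4 for adipocytes (-0.35) and Alb for hepatocytes (1.92, saturated on all 4 arrays). All of these but Fabp4 passed the test, and the value of Alb carries no bound. The part of these cells in the members' values was not tested.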

How the data were processed

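The authors deposited, per the file headers, spot intensity read on scanner G2505C by Feature Extraction 10.5.1.1, with probe positions on mm9. The series' design text names another scanner and version of this software. Background was removed and spots were detrended within arrays. The deposited series table held the rounded mean intensity.

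Here control spots and outlier spots were dropped, log2 of the processed signal was scaled to each array's 75th percentile, and spots of a probe were averaged. Probes well above background on both arrays of a group were fitted with lmFit and eBayes (limma 3.58.1, R 4.3.3), adjusted by Benjamini-Hochberg at 0.05 and tested on simulated data. Differences are LB1 minus control. The number of arrays limits the precision. A gene was represented by its brightest tested probe, named through RefSeq accessions (GRCm38.p6). The 4 companion and 11 marker lists and the members were chosen with earlier results of these data known. Named are all member probes, Gapdh, from each companion list the 4 genes of smallest p past the test without saturation, and from each marker list the gene of largest difference. Por, Cyp1a2 and Adh6a were added after their values were seen. Alternatives changed the scaling, background correction, filter, test, block, array weights, the probe of a gene, the deposited table used and the arrays included. Of each pair of numbers, the first is replicate 1. Each slide held the arrays of 1 replicate number and was scanned at 1 time. Same-numbered arrays' deviations correlated at 0.151, and the labels do not say that numbers mark a batch. Some markers are not reported here.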

Additional observations from a re-analysis of the deposited data

How the results depend on the processing

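With 2 arrays a group, the member calls were lost without either control array, as were nearly all calls over all tested probes. The spread there comes from the LB1 pair, and the single control was taken to vary as they do. Saturation, not only replication, limits Cyp2e1, Cat, Adh1 and Aldh1a1. Causes of the shifts below were not tested. Member probes called higher, 1 in the main setting, numbered 0 with the array median, no scaling, quantile normalization, the adjusted t-test and without saturated probes, 2 with no filter and array weights, 3 with normexp, a filter on all 4 arrays and trend with robust eBayes, and 4 on the series table. Lower ones, 2 in the main setting, numbered 6 with quantile normalization and normexp, 4 with the array median and the series table, 9 with no scaling, 0 by the adjusted t-test and 1 with Gapdh as reference and by the unadjusted t-test, with or without the 2-fold minimum. Leaving out 1 array gave 0 to 2 higher and 0 to 3 lower. The added higher call with no filter was the Adh1 clone probe, not well above background on any array, and carries no fold. Higher calls with array weights, the filter on all 4 arrays, trend with robust eBayes and the series table included Cyp2e1. Its value is only an upper limit and gives no direction. No scaling and Gapdh as reference were chosen after seeing the data.

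Over all tested probes, 4409 higher and 3031 lower became 1654 and 7126 with the array median, 2517 and 3985 with quantile normalization, 11338 and 4643 with normexp, 10697 and 3773 on the series table, 17556 and 3127 with no filter, 137 and 15167 with no scaling and 3281 and 1932 with Gapdh. The methods' t-test gave 0 and 0 after adjustment, 3919 and 3093 at an unadjusted p under 0.05, and 2228 and 1881 of those with 2-fold. Leaving out 1 array gave 0 to 6009 higher and 1 to 5017 lower. Array weights gave 4180 higher and 3039 lower, the filter on all 4 arrays 5231 and 2958, and trend with robust eBayes 5094 and 3477. With the slide as a replicate block, 4191 were higher and 2771 lower, and the 3 member calls were kept (adjusted p = 0.0307, 0.0368 and 0.0427).

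Signs turned for Cyp2e1 (-0.91), the upstream Adh1 probe (-0.41) and the Aldh2 clone probe (-1.02) with no scaling, and for Adh4 with the array median (-0.29), normexp (-0.22) and no scaling (-1.57). Adh7, not well above background on the LB1 arrays, turned to 1.27 with normexp and 1.02 on the series table, values that carry no fold. It is counted above among the lower members with the array median, quantile normalization and no scaling and the higher ones with normexp and the series table. Cat turned with the array median (-0.36), quantile normalization (-0.30), normexp (-0.32), the series table (-0.074) and no scaling (-1.65), and ranged from -0.13 to 0.68 with 1 array left out, turning without LB1 replicate 1. Adh5 ranged from -0.35 to 0.12 and Aldh1a1 from -0.45 to 0.028 likewise, both turning without LB1 replicate 2. Aldh1b1, the Aldh2 RefSeq probe, Aldh1a7 and the downstream Adh1 probe kept their sign in all 16 alternatives with a test.

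List medians against all genes moved as follows. For the other dehydrogenases, -0.19 became -0.54 with quantile normalization, -0.79 with normexp, -0.39 with no filter, -0.60 on the series table, -0.47 with the mean over probes, -0.38 without saturated probes, and -0.081 and -0.28 within slides 1 and 2. For electron donors, peroxide and acetate, 0.03 became -0.27, -0.49, -0.39 and -0.31 with the first 4 of these and -0.28 without saturated probes. The pericentral -0.73 became -1.01 with normexp, -1.18 with no filter and -0.56 within slide 1. The periportal -0.15 became -0.40 with quantile normalization, -0.72 with normexp, -0.60 with no filter and -0.54 on the series table. Leaving out 1 array gave -0.23 to -0.13, -0.05 to 0.13, -0.65 to -0.55 and -0.24 to 0.05 for the 4 lists in this order, the sign turning for the second without LB1 replicate 1 or control replicate 1, and for the periportal list without LB1 replicate 2.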
